A study of Rattus norvegicus and Mus musculus with 24 samples.

Results

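Osteopontin (SPP1), matrix Gla protein (MGP), SPARC and 7 further genes of secreted matrix proteins, CCN1, CCN2, THBS1, THBS2, POSTN, TNC and FN1, were followed in kidneys that lack cystinosin, the lysosomal cystine transporter encoded by Ctns. The 10 genes were taken as the rows of the tables that carry their symbols. All 10 were found among 17376 symbols of the mouse table and 9 among 14931 symbols of the rat table. TNC was not analysed in the rat here. The set was selected on its values in these same animals, since SPP1, MGP and SPARC were among the larger differences between knockout and control mice and the differences of SPP1 between rat groups were known. Values of the members between knockout and control animals are therefore given as a description, without a p-value.

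Bulk RNA sequencing covered 4 Ctns KO and 4 Ctns WT mice on a C57BL/6 background and 8 Ctns KO and 8 Ctns WT rats on a Sprague-Dawley background, with littermates as controls and 1 library per animal. The rat labels carry animal numbers 17 to 24 and 25 to 32, with 4 rats of each genotype in either range. What distinguishes the ranges, and the age, sex and any treatment of the sequenced animals, is not given in the labels. The study's methods state that knockouts and controls were matched for age and sex and name female mice for cell cultures and mechanistic work, its reporting summary names female mice for every experiment, and rats of both sexes are named for a rapamycin experiment. Kidney cortex is the tissue in the methods, to which the labels add proximal tubule cells and a protocol for dissected tubules. All libraries held reads of podocyte and thick limb markers, so other parts of the nephron were present.

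Matricellular proteins are secreted into the extracellular matrix, where they serve mainly as signals for cells and less as structural parts. They bind integrins, CD44 and other cell-surface receptors, and they bind growth factors and collagens. Osteopontin is a phosphorylated, acidic protein that tubular epithelium secretes into urine, where it slows the growth of calcium crystals, and injured tubules and macrophages also make it. MGP is a vitamin K-dependent inhibitor of calcification that binds bone morphogenetic proteins. SPARC is a collagen chaperone, CCN1 and CCN2 are immediate-early targets of YAP and TGF-beta signalling, and THBS1 activates latent TGF-beta. FN1 encodes fibronectin, POSTN periostin and TNC tenascin-C, proteins of the provisional matrix of wounds.

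Several members reach integrins through the tripeptide Arg-Gly-Asp. The codons for it were searched in frame in the longest complete coding sequence of each mouse gene, taken from the GENCODE vM21 transcripts on mm10. They were present in 4 of the 10 members, SPP1, FN1, THBS1 and THBS2, and in 7.25% of 21559 mouse genes with a coding sequence. All sites found are shown because they separate the members that hold these codons from the rest. The 9 codon bases are in capitals with 15 bases on either side:
Spp1, exon 7, chr5:104439466-104439504 (+): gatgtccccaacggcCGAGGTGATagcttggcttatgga
Fn1, exon 30, chr1:71606731-71606769 (-): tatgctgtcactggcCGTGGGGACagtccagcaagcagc
Fn1, exon 40, chr1:71597428-71597466 (-): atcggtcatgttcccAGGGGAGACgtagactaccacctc
Thbs1, exons 17 and 18, chr2:118122674-118122905 (+): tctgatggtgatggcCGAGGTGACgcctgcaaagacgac
Thbs2, exons 17 and 18, chr17:14671469-14673150 (-): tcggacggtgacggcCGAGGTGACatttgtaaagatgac
All are exonic and coding, and the spans of Thbs1 and Thbs2 include the intron between both exons. The searched coding sequences of Mgp, Sparc, Ccn1, Ccn2, Postn and Tnc held no such codons in frame.

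The promoters of 3 members are shown because their transcripts differed in how they stood between genotypes, as given further on. The 250 bases before the RefSeq start were read from a table of rat promoters on GRCr8, which is not the rn5 build named in the submitters' processing notes. Capitals mark TATAAA on the gene's strand and GGAATG on either strand (CATTCC when it lies on the other strand), the core bound by TEAD factors:
Spp1, chr14:5619805-5620054 (-): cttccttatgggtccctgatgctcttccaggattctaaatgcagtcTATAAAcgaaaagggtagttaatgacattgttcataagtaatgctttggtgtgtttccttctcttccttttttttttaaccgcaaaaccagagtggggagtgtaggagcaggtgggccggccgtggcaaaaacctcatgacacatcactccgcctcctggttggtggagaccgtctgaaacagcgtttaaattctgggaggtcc
Ccn1, chr2:237225690-237225939 (-): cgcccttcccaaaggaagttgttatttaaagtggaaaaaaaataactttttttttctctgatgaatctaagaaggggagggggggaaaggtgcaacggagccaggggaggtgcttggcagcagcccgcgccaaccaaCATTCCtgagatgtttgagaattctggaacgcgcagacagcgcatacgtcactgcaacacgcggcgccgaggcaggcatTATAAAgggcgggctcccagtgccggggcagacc
Ccn2, chr1:22624615-22624864 (-): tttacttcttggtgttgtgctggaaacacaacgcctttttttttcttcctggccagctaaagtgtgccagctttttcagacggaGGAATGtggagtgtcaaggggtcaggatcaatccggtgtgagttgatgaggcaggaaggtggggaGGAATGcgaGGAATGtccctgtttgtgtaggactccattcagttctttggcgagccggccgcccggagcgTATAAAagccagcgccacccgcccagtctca
GGAATG occurred 3 times before Ccn2, once before Ccn1 and not before Spp1, and was found in 12.1% of 33469 rat promoters of this length. TATAAA stood in all 3 windows and in 8.06% of all promoters. The motif TGANTCA, which reads alike on both strands and did not overlap the others, was in none of the 3 and in 6.34% of all promoters. Of the other members in the table, Sparc and Thbs1 held 1 GGAATG each, and Postn and Tnc held 1 TATAAA each. These matches are letters in a window and were not tested as binding sites. Mgp, Thbs2 and Fn1 were not in the table.

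Reads on genes numbered 19309449 to 44449859 per mouse and 24684097 to 40629873 per rat. Reads of Ctns in Ctns KO mice were 15.5 to 16.9 per 1000000 reads of the library (CPM) against 39.0 to 47.4 CPM in Ctns WT mice. In rats they were 16.9 to 22.96 CPM in Ctns KO and 18.99 to 26.4 CPM in Ctns WT animals, so the transcript level does not check the rat labels. Labels give the animals as separate, and all errors below are between animals.

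In mouse kidney the members differed widely in level. Per kilobase of merged exons, which permits levels to be compared between genes, Ctns WT mice had 960.7 ± 151.7 CPM per kilobase of Spp1 (SD, n = 4), 143 ± 32.1 of Mgp and 58.8 ± 5.202 of Sparc. Ccn2 followed with 27.97 ± 4.61, Thbs1 with 14.1 ± 2.19, Ccn1 with 12.0 ± 3.33 and Fn1 with 4.62 ± 1.10. Thbs2 (1.65 ± 0.299), Tnc (0.911 ± 0.121) and Postn (0.879 ± 0.350) were lowest. Neighbours in this order did not overlap between mice except Thbs1 with Ccn1 and Tnc with Postn. In Ctns KO mice, Ccn1 at 31.1 ± 7.74 stood above Thbs1 at 18 ± 0.852 CPM per kilobase and overlapped Ccn2 at 39.7 ± 2.08. The order of Spp1 (2083 ± 223), Mgp (365 ± 33.9) and Sparc (132 ± 16.9) was the same in both genotypes. The annotation behind the deposited counts is not given, so the exon lengths are an approximation.

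Spp1, Mgp and Sparc were each more than doubled in mean in Ctns KO mice, and so was Ccn1. The deposited mouse value, called scaled value here, is the reads of a gene relative to the 75th percentile of its library, so that a gene at that percentile has 1. SPP1, osteopontin, had scaled values of 60.6, 70.4, 79.8 and 66.9 in Ctns KO mice 3, 5, 6 and 8 and of 33.3, 40.7, 26.6 and 34.3 in Ctns WT mice 1, 2, 4 and 7. The lowest knockout lay well above the highest control, and the ratio of the means was 2.06. MGP stood at 4.68, 4.97, 4.58 and 3.97 in the Ctns KO and at 2.199, 2.29, 1.60 and 1.42 in the Ctns WT mice, a ratio of 2.42 without overlap. SPARC had 6.77, 7.73, 8.36 and 6.15 in Ctns KO against 3.29, 3.90, 3.27 and 3.15 in Ctns WT mice, a ratio of 2.13, with the controls close together.

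The CCN proteins differed from each other. CCN1, which binds integrins and induces matrix proteases, had scaled values of 1.70, 0.981, 1.12 and 1.27 in Ctns KO and 0.448, 0.648, 0.622 and 0.347 in Ctns WT mice, with a ratio of 2.46. Its relative CCN2, connective tissue growth factor, had 2.30, 2.29, 2.27 and 2.05 in Ctns KO and 1.59, 2.01, 1.30 and 1.71 in Ctns WT mice, a ratio of 1.35. Both pairs of groups were apart, but for CCN2 the gap between the lowest knockout and the highest control was narrow.

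Of the larger adhesion proteins, FN1 had scaled values of 1.35, 1.65, 1.61 and 1.41 in Ctns KO and 0.898, 0.734, 1.06 and 0.632 in Ctns WT mice (ratio 1.81). TNC was low, with 0.270, 0.289, 0.378 and 0.243 in Ctns KO and 0.161, 0.163, 0.119 and 0.161 in Ctns WT mice (ratio 1.95). Neither gene overlapped between genotypes. The thrombospondins overlapped: THBS1 ranged from 1.999 to 2.28 in Ctns KO and from 1.42 to 2.07 in Ctns WT mice, and THBS2 from 0.243 to 0.263 and from 0.171 to 0.264. POSTN was near the bottom in every mouse, at 0.0372 to 0.0862 in Ctns KO and 0.0401 to 0.0954 in Ctns WT mice.

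**Figure D1:**
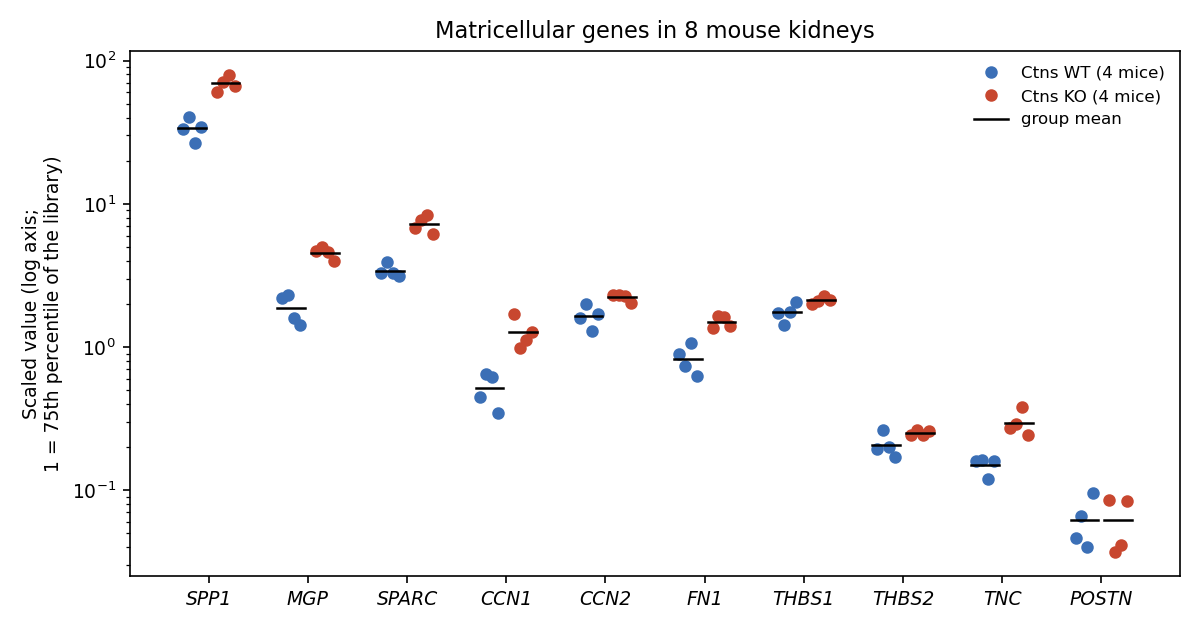
Scaled value of the 10 members (log axis, 1 is the 75th percentile of the library) in 4 Ctns WT (blue) and 4 Ctns KO (red) mice; points are mice and lines group means. SPP1, MGP, SPARC, CCN1, CCN2, FN1 and TNC show no overlap between genotypes, whereas THBS1, THBS2 and POSTN do.

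On the log2(scaled value + 1) scale of limma, which compresses differences of weakly expressed genes, the differences were 1.03 ± 0.14 (standard error) for SPP1, 0.96 ± 0.11 for MGP, 0.90 ± 0.09 for SPARC, 0.58 ± 0.11 for CCN1 and 0.45 ± 0.08 for FN1. They were 0.29 ± 0.08 for CCN2, 0.19 ± 0.07 for THBS1, 0.17 ± 0.03 for TNC and 0.05 ± 0.02 for THBS2, and POSTN did not differ in mean. A threshold of 0.05 on the adjusted p called 6 of the 10 members, all higher in Ctns KO mice, beside 4.32% of all symbols. No overlap was seen for 7 of 10, beside 11.6% of all symbols. The median difference of the members was 0.37 and that of all symbols 0.00. These counts describe genes chosen on this contrast. The calls of CCN1 and TNC were lost without any 1 of the 4 Ctns WT mice, that of CCN1 also without Ctns KO mouse 6 or 8 and that of TNC without Ctns KO mouse 3 or 5. The FN1 call was lost without Ctns WT mouse 1 or 2 or Ctns KO mouse 5 or 6. Without Ctns WT mouse 2, CCN2 (0.35) and THBS2 (0.08) were called.

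On recovered reads, where low genes are not compressed, edgeR gave 1.29 ± 0.26 for CCN1, 1.26 ± 0.15 for MGP, 1.07 ± 0.10 for SPARC, 1.02 ± 0.12 for SPP1 and 0.95 ± 0.14 for TNC. FN1 had 0.83 ± 0.15 and CCN2 0.41 ± 0.10. This fit called 7 of the 10 members beside 8.91% of 13442 symbols, CCN2 being the addition. For TNC the constant added before the logarithm set most of the value, which was 0.65 in limma with 0.1 in place of 1.

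In rats the picture was dominated by SPP1. In numbers 17 to 24, SPP1 had 848, 1403, 1183 and 1435 CPM in Ctns KO rats 18, 20, 22 and 24 and 329, 240.5, 182 and 209.5 CPM in Ctns WT rats 17, 19, 21 and 23. In numbers 25 to 32 it had 3842, 5122, 4362 and 3216 CPM in Ctns KO rats 26, 28, 30 and 32 and 162, 179.7, 187.5 and 179.7 CPM in Ctns WT rats 25, 27, 29 and 31. The 3 tiers, controls, knockouts of the lower range and knockouts of the higher range, did not overlap. The ratio of the means was 5.07 in numbers 17 to 24 and 23.3 in numbers 25 to 32.

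MGP followed the same order with smaller steps. It had 164, 255, 189.5 and 212 CPM in Ctns KO and 146.5, 149.9, 155 and 148 CPM in Ctns WT rats of numbers 17 to 24, so that knockout rat 18 stood only just above the controls. In numbers 25 to 32 it had 361, 410.2, 354 and 424 CPM in Ctns KO and 125, 119, 154.5 and 145 CPM in Ctns WT rats. The ratios of the means were 1.37 and 2.85.

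SPARC, CCN1 and FN1 overlapped between genotypes in numbers 17 to 24 and were apart in numbers 25 to 32. SPARC had 462, 549.7, 459.6 and 517 CPM in Ctns KO and 478, 495, 446 and 431 CPM in Ctns WT rats of the lower range. In the higher range it had 631, 650.3, 597 and 576 CPM in Ctns KO and 414, 411, 428 and 408.5 CPM in Ctns WT rats, a ratio of 1.48. CCN1 had 37.8, 21.8, 18.4 and 23.98 CPM in Ctns KO and 21.5, 19.98, 16.8 and 15.4 CPM in Ctns WT rats 17 to 24, with knockout 18 high and the rest among or near the controls. In numbers 25 to 32, CCN1 was at 33.4, 38.3, 39.0 and 44.6 CPM in Ctns KO and at 12.8, 21.2, 15.4 and 23.7 CPM in Ctns WT rats, a ratio of 2.13.

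FN1 had 42.9, 63.4, 60.5 and 61.5 CPM in Ctns KO and 41.8, 45.5, 43.4 and 50.2 CPM in Ctns WT rats 17 to 24. Knockout rat 18 lay among the controls there. In numbers 25 to 32 FN1 was at 86.9, 79.1, 93.6 and 69.8 CPM in Ctns KO and at 34.5, 48.0, 36.7 and 28.1 CPM in Ctns WT rats, a ratio of 2.23.

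CCN2, in contrast to CCN1, overlapped in both ranges. It spread from 46.5 to 119 CPM in Ctns KO and from 53.8 to 106 CPM in Ctns WT rats 17 to 24, and from 76.0 to 101 and from 62.4 to 104 CPM in rats 25 to 32. The thrombospondins were not higher in Ctns KO rats. THBS1 averaged 97.1 ± 7.58 CPM (SD, n = 4) in Ctns KO and 97.1 ± 7.79 in Ctns WT rats 17 to 24, and 67.3 ± 13.3 and 79.7 ± 14.03 CPM in rats 25 to 32. THBS2 averaged 7.24 ± 0.592 and 7.24 ± 1.07 CPM in rats 17 to 24, and 4.67 ± 0.281 and 5.35 ± 0.891 CPM in rats 25 to 32. POSTN had 0 to 19 reads per rat. Its highest 3 libraries were Ctns KO rats 28, 30 and 32 with 19, 18 and 12 reads, the last matched by Ctns WT rat 17 with 12. The library without a read, Ctns WT rat 23, allows up to 0.0943 CPM, a limit that covers counting error only.

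**Figure D2:**
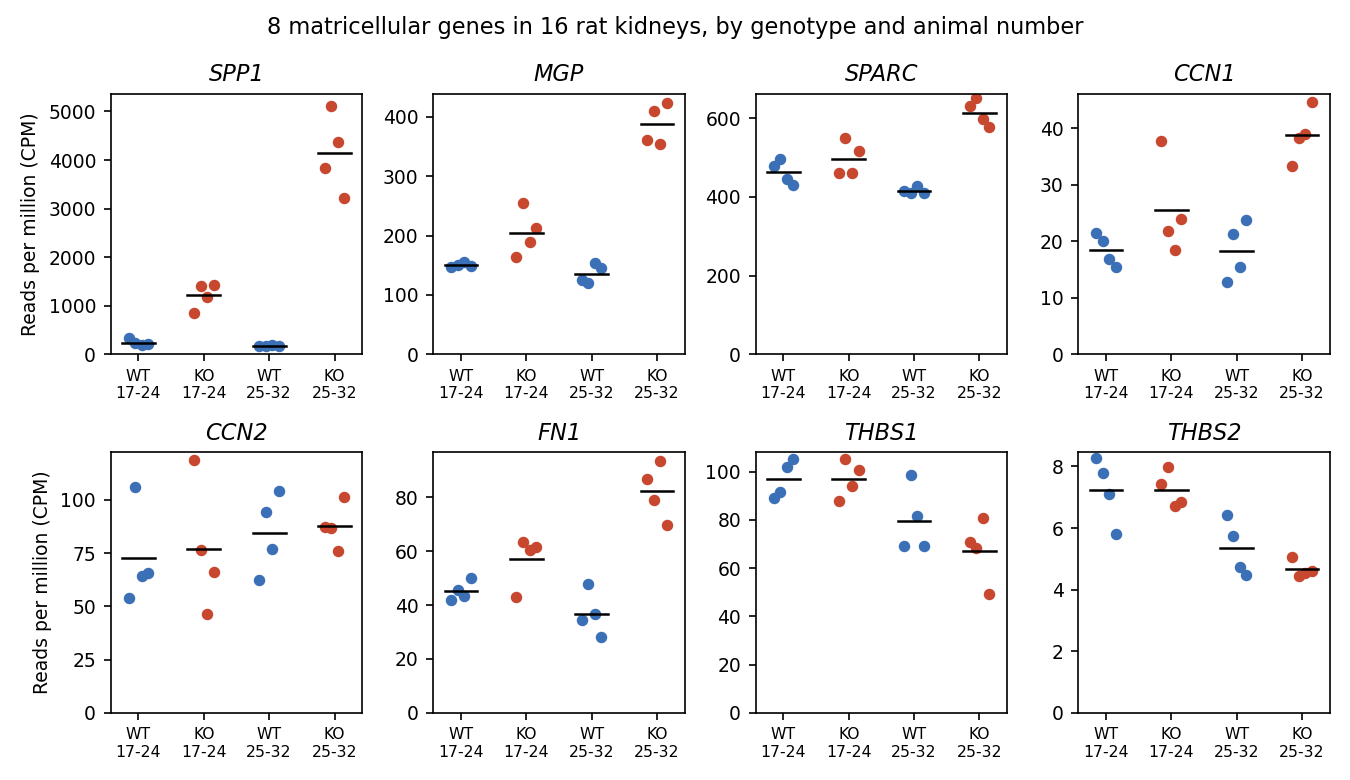
CPM of 8 members in 16 rats by genotype and animal number, blue Ctns WT and red Ctns KO; points are rats, lines are means of 4, and every axis starts at 0. TNC has no value and POSTN, with at most 19 reads, is left out. SPP1, MGP, SPARC, CCN1 and FN1 are highest in Ctns KO rats 25 to 32, and CCN2 overlaps throughout.

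Over all 16 rats, with genotype as the only term, edgeR put SPP1 at a log2 fold change of 3.59 ± 0.35 (standard error), MGP at 0.96 ± 0.18, CCN1 at 0.72 ± 0.18, FN1 at 0.68 ± 0.13 and SPARC at 0.25 ± 0.07. CCN2 stood at -0.02 ± 0.18, THBS1 at -0.19 ± 0.13 and THBS2 at -0.16 ± 0.15. POSTN did not pass the filter on low counts. Of 8 members tested, 5 were called, all higher in Ctns KO rats, beside 27.5% of all symbols. SPP1 and MGP, 2 of the 8, did not overlap between genotypes, beside 6.16% of symbols.

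Within the ranges, a model of 4 groups gave SPP1 2.31 ± 0.19 in numbers 17 to 24 and 4.37 ± 0.21 in numbers 25 to 32. MGP had 0.42 ± 0.12 and 1.34 ± 0.12, FN1 0.31 ± 0.13 and 0.99 ± 0.13, CCN1 0.45 ± 0.22 and 0.91 ± 0.22, and SPARC 0.08 ± 0.06 and 0.40 ± 0.06. CCN2 had 0.08 ± 0.26 and -0.11 ± 0.26. THBS1 had -0.03 ± 0.12 and -0.41 ± 0.12, and THBS2 -0.02 ± 0.12 and -0.36 ± 0.13. POSTN, which passed the filter of this model only through Ctns KO rats 25 to 32, had -0.26 ± 0.81 and 1.17 ± 0.60.

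In numbers 17 to 24 the threshold called 2 of 9 members, SPP1 and MGP, beside 6.96% of symbols. Both did not overlap between genotypes, beside 12.9% of symbols. In numbers 25 to 32 it called 7 of 9 beside 50.0% of symbols: SPP1, MGP, FN1, CCN1 and SPARC higher and THBS1 and THBS2 lower. There 5 of 9 did not overlap, beside 43.6% of symbols. Without POSTN the counts were over 8 members. Library scaling matters for the small values, because plain CPM placed the median symbol 0.16 higher on the log2 scale than the fit did in the contrast of rats 25 to 32, and 0.12 lower in the contrast of Ctns WT rats between ranges. The call of MGP in numbers 17 to 24 was lost without any of 6 rats, Ctns WT 17, 19, 21 and 23 and Ctns KO 20 and 24, with log2 fold changes of 0.31 to 0.45. Without Ctns KO rat 18, FN1 was called in that range at 0.43. In numbers 25 to 32 the THBS2 call was lost without Ctns WT 25 or 27 or Ctns KO 28, 30 or 32, and when that range was fitted alone (-0.35).

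**Figure D3:**
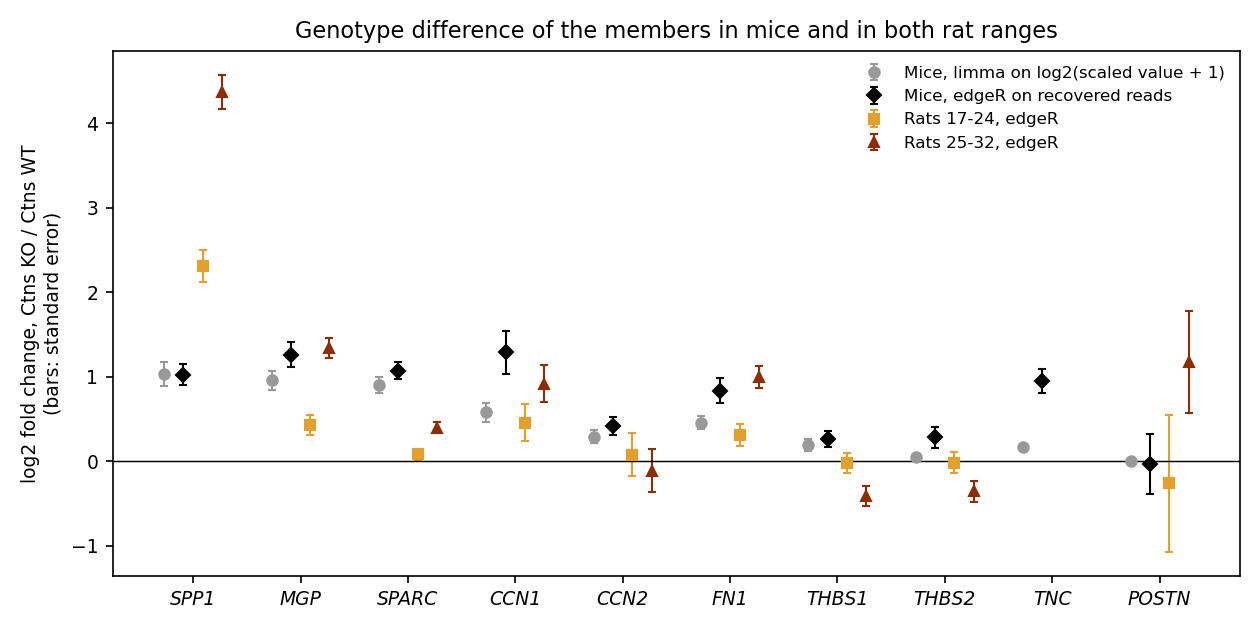
Log2 fold change between Ctns KO and Ctns WT with its standard error (bars) for each member in mice (limma on scaled values, grey; edgeR on recovered reads, black) and in rats 17 to 24 (orange) and 25 to 32 (brown). SPP1 reaches 4.37 in rats 25 to 32 against 1.02 on mouse reads, while THBS1 and THBS2 lie at or below 0 in rats. TNC has no value in rats.

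The difference between the ranges in the genotype effect was fitted itself, as an interaction over 16 rats with edgeR and Benjamini-Hochberg adjustment over 11839 symbols. It is built from the knockout against control values of both ranges. Member values are therefore a description here too, without a p-value. For SPP1, whose range effects were known, the effect was larger in rats 25 to 32 by 2.06 ± 0.26 (log2). The effect on MGP was larger in rats 25 to 32 by 0.92 ± 0.17, that on FN1 by 0.68 ± 0.18 and that on SPARC by 0.32 ± 0.09. For CCN1 the difference was 0.46 ± 0.31, for THBS1 -0.39 ± 0.17, for THBS2 -0.34 ± 0.18 and for CCN2 -0.19 ± 0.36. For POSTN, which entered the fit only through the group where it was high, no value is given. The threshold called SPP1, MGP, FN1 and SPARC, 4 of 9 members, beside 14.7% of symbols. This count describes genes chosen on these animals. The call of SPARC was lost without control 17, 19 or 27 or knockout 22 or 28, at 0.28 to 0.30.

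Control rats of the 2 ranges were compared as a contrast that holds no knockout animal. None of the 9 members was called by edgeR, beside 21.1% of symbols, and none by DESeq2, while 1 of 9, THBS2, had an unadjusted p under 0.05 with either tool. POSTN, 1 of the 9, had 0 to 12 reads in the controls and entered the fit only through Ctns KO rats 25 to 32. Its lack of a call therefore says little. SPARC alone did not overlap, lower in CPM in Ctns WT rats 25 to 32, beside 25.6% of symbols. SPP1 was lower in Ctns WT rats 25 to 32 by -0.31 ± 0.18 (log2; adjusted p = 0.250), and MGP differed by -0.01 ± 0.12 (adjusted p = 0.973). THBS2 came nearest to the threshold with -0.31 ± 0.12 (adjusted p = 0.0894), and was called at -0.39 or -0.41 without Ctns WT rat 23 or 25. Among Ctns KO rats, on the other hand, the same contrast called 8 of 9 members beside 47.0% of symbols. With SPP1 and POSTN these were MGP, CCN1, FN1, SPARC, THBS1 and THBS2. The set was chosen with values of these knockout rats known, so the calls are a description. SPP1 was higher in Ctns KO rats 25 to 32 by 1.75 ± 0.18, a description as above, MGP by 0.91 ± 0.12, CCN1 by 0.59 ± 0.22, FN1 by 0.52 ± 0.13 and SPARC by 0.29 ± 0.06. THBS1 was lower with -0.54 ± 0.12 and THBS2 with -0.65 ± 0.13. Both were apart from Ctns KO rats 17 to 24, as were SPP1, MGP, SPARC and FN1 on the higher side, beside 40.7% of symbols. POSTN (1.92 ± 0.66) rests on few reads and on the group through which it passed the filter, so no weight is placed on its call. CCN2 (0.17 ± 0.26) was not called. The CCN1 call was lost without any 1 of Ctns KO rats 20, 22, 24, 28, 30 and 32.

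Among receptors, CD44, which binds osteopontin and hyaluronan, moved with the members in both species. It had 5.55 to 6.89 CPM in Ctns KO and 2.59 to 3.98 CPM in Ctns WT mice (0.09 ± 0.01 on the compressed log2(scaled value + 1) scale, adjusted p = 0.00980 with limma). On recovered mouse reads edgeR gave 0.965 ± 0.154. In rats 25 to 32 CD44 was at 38.4 to 48.8 CPM in Ctns KO and 8.58 to 9.67 CPM in Ctns WT animals, and in rats 17 to 24 at 15.6 to 20.8 and 8.11 to 10.7 CPM. Its log2 fold change over all rats was 1.65 ± 0.23 (edgeR, adjusted p = 9.02e-05), and its effect was larger in the higher range by 1.201 ± 0.138 (adjusted p = 8.45e-05). Of 20 receptor genes listed, 3 rose in Ctns KO mice and none fell, beside 4.32% of all symbols called: CD44, the integrin subunit ITGA3 (0.17 ± 0.04, adjusted p = 0.0480) and the scavenger receptor LRP1 (0.22 ± 0.04, adjusted p = 0.0215). Of 12 tested over all rats, 3 rose and none fell, beside 27.5% of all symbols called, namely CD44, LRP1 (0.22 ± 0.08, adjusted p = 0.0460) and ITGB1, the common beta subunit (0.15 ± 0.05, adjusted p = 0.0472). In rats 25 to 32, CD44 and ITGB1 rose, and LRP1 was not called. ITGB6 (-0.54 ± 0.10, adjusted p = 0.000336) and ITGB8 (-0.67 ± 0.26, adjusted p = 0.0427) fell there with edgeR, beside 50.0% of all symbols called. The median difference was 0.06 in mice, on the compressed scale, and 0.04 over all rats, against 0.00 and -0.02 for all symbols.

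Enzymes that process the matrix held the highest share of called genes among the 4 related lists. Of 18 listed, 6 rose and 1 fell in Ctns KO mice. Of 16 tested in rats, 8 rose and 1 fell. For all symbols the called share was 4.32% in mice and 27.5% in rats. MMP2, a gelatinase, had 13.9 to 24.5 CPM in Ctns KO and 2.69 to 5.78 CPM in Ctns WT mice (0.36 ± 0.06 on the compressed log2(scaled value + 1) scale, adjusted p = 0.0188 with limma). On recovered mouse reads edgeR gave 2.32 ± 0.29. In rats MMP2 stood at 23.3 to 28.7 CPM in Ctns KO animals 25 to 32, at 10.8 to 14.9 CPM in Ctns KO animals 17 to 24 and at 5.41 to 8.44 CPM in the controls (1.38 ± 0.18, adjusted p = 5.09e-05 with edgeR). TIMP1, an inhibitor of such proteases, was the largest rise of the list in rats (1.86 ± 0.33, adjusted p = 0.000630), with 24.4 to 41.2 CPM in Ctns KO and 4.06 to 6.17 CPM in Ctns WT rats 25 to 32. In mice TIMP1, named there after its values were seen, was weakly expressed and also called higher in Ctns KO animals. Its ratio of group means was 4.03, without overlap. On recovered mouse reads edgeR gave 2.06 ± 0.25 for TIMP1 and 0.40 ± 0.07 for TIMP2. MMP12, the macrophage elastase, which cleaves osteopontin, rose in rats by 1.49 ± 0.33 (adjusted p = 0.00286 with edgeR). TIMP3, the matrix-bound inhibitor, fell in mice and over all rats. Its log2 difference was -0.36 ± 0.06 in mice (adjusted p = 0.0266), where TIMP2 rose by 0.24 ± 0.04 (adjusted p = 0.0199), and -0.50 ± 0.11 in rats (adjusted p = 0.00281). Within the rat ranges TIMP3 overlapped between genotypes and was not called in numbers 17 to 24 (-0.16 ± 0.10, adjusted p = 0.427) but fell in numbers 25 to 32 (-0.85 ± 0.10, adjusted p = 2.32e-06), and the difference between the ranges was called (-0.69 ± 0.14, adjusted p = 0.00404 with edgeR). The list's median was 0.05 in mice, on the compressed scale, and 0.21 in rats.

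Among 30 family relatives, 6 rose and none fell in Ctns KO mice, beside 4.32% of all symbols called, and 2 rose and 1 fell among 15 tested in rats, beside 27.5%. In mice the largest differences on the compressed log2(scaled value + 1) scale were those of SPARCL1, the closest relative of SPARC (0.33 ± 0.06, adjusted p = 0.0371), SPON1, or spondin 1 (0.23 ± 0.04, adjusted p = 0.0214), and TGFBI, a fasciclin-domain relative of periostin (0.22 ± 0.03, adjusted p = 0.00940). By the ratio of group means, FBLN1 (2.45) and CCN4 (2.08), both called and weakly expressed, were above TGFBI (1.67), SPON1 (1.54) and SPARCL1 (1.44), and are named after their values were seen. In rats the called genes were SMOC2, a SPARC relative (1.237 ± 0.202, adjusted p = 0.000340), and fibulin 1, FBLN1 (1.09 ± 0.14, adjusted p = 3.01e-05), while OGN, osteoglycin, was lower by -0.61 ± 0.17 (adjusted p = 0.0119). OGN had at most 2.77 CPM in any rat. The list's median was 0.00 in mice, on the compressed scale, and -0.13 in rats.

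Of 22 upstream regulators, 2 rose in mice and none fell, beside 4.32% of all symbols called, and of 18 tested in rats 4 rose and 2 fell, beside 27.5%. ANKRD1, a target of YAP as CCN1 and CCN2 are, rose in mice (0.10 ± 0.01 on the compressed scale, adjusted p = 0.0132 with limma) from 0.962 to 2.97 CPM in Ctns WT to 4.77 to 6.23 CPM in Ctns KO animals. On recovered mouse reads edgeR gave 1.61 ± 0.30. In rats ANKRD1 ranged from 1.75 to 3.88 CPM in controls and from 2.03 to 4.38 CPM in knockouts. TGFB1, the ligand, rose in rats (0.70 ± 0.17, adjusted p = 0.00500). In mice it was called by limma (0.05 ± 0.01, adjusted p = 0.0457) but not by edgeR on recovered reads (0.23 ± 0.09, adjusted p = 0.130). TEAD2, a partner of YAP, rose over all rats by 1.243 ± 0.254 (adjusted p = 0.00178), was not called in numbers 17 to 24 (0.56 ± 0.25, adjusted p = 0.232) and differed between the ranges by 1.1997 ± 0.354 (adjusted p = 0.0320 with edgeR). In rats 25 to 32, TEAD1 (-0.81 ± 0.22, adjusted p = 0.00679) and WWTR1 (-0.42 ± 0.11, adjusted p = 0.00566) fell with edgeR. YAP1 was not called there (-0.33 ± 0.14, adjusted p = 0.0620). TEAD2 averaged 3.79 CPM in Ctns KO and 0.993 CPM in Ctns WT rats 25 to 32, and TEAD1 11.1 and 17.3 CPM. In that range 4 of 18 regulators rose and 5 fell, beside 50.0% of all symbols called. TEAD1, WWTR1 and YAP1 are named after their values were seen. BMP2, a ligand that MGP binds, rose over all rats by 0.81 ± 0.22 (adjusted p = 0.0129). Those that fell over all rats, named here after their values were seen, were BMP4 (-0.49 ± 0.07, adjusted p = 9.76e-05) and SMAD7 (-0.37 ± 0.07, adjusted p = 0.00137). The list's median was 0.03 in mice, on the compressed scale, and 0.01 in rats.

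**Figure D4:**
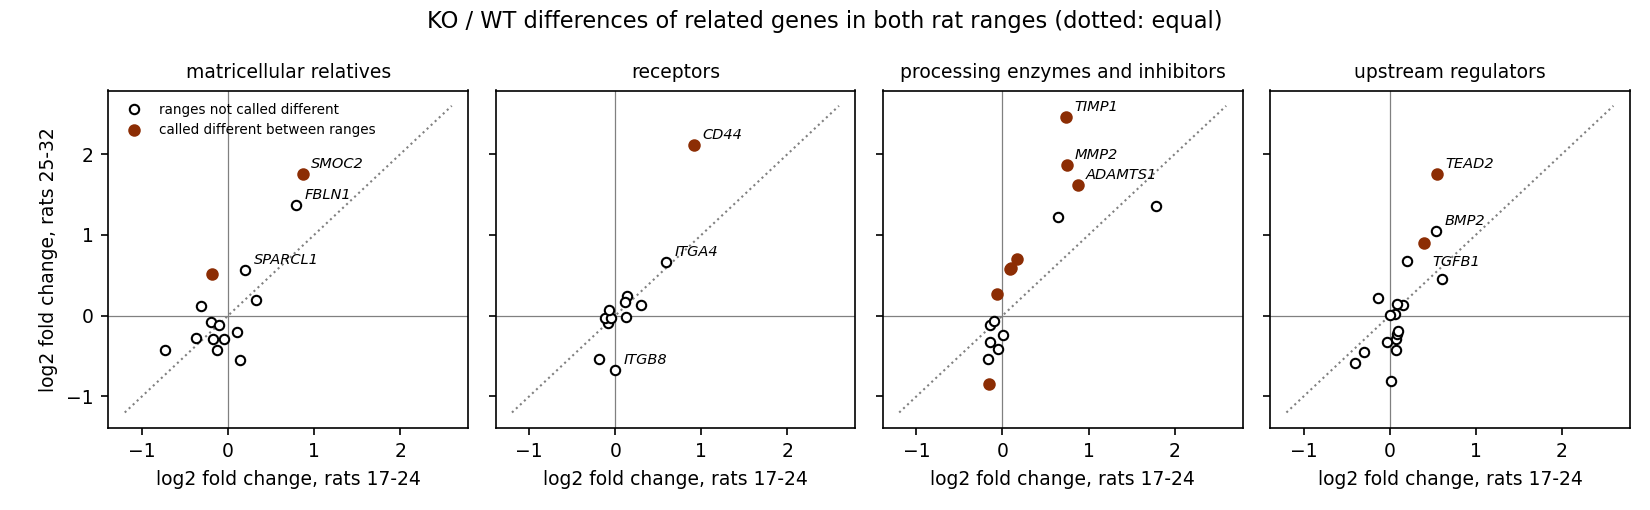
Log2 fold change between Ctns KO and Ctns WT in rats 17 to 24 (horizontal) and 25 to 32 (vertical) for the genes of 4 related lists; filled points were called different between ranges and the dotted line marks equal values. CD44, TIMP1, MMP2, TEAD2 and SMOC2 lie above the line and were called different between ranges. SMOC2 averaged 6.37 CPM in Ctns KO rats 17 to 24 and 6.33 CPM in Ctns KO rats 25 to 32, against 3.43 and 1.685 CPM in Ctns WT rats. Both axes come from 1 model of 16 rats.

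The genes whose log2 CPM over the 16 rats was most like that of SPP1 were AURKB, a mitotic kinase (Pearson r = 0.989), the replication helicase subunit MCM3 (r = 0.987), UBE2T (r = 0.986), MMP2 (r = 0.986) and MCM6 (r = 0.985). The rats fall into separate groups by genotype and range, which these values share, and no test was made. AURKB averaged 0.825 ± 0.0304 CPM in Ctns WT and 3.33 ± 0.654 CPM in Ctns KO rats 17 to 24, and 0.617 ± 0.127 and 6.92 ± 0.415 CPM in rats 25 to 32.

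Markers of other cell types moved with the members in the same libraries. In bulk tissue, fewer cells of a type and less RNA per cell cannot be told apart. The 8 fibroblast and pericyte markers, which stand for cells that make SPARC and fibronectin, summed to 314 to 360.5 CPM in Ctns KO and 167.5 to 204 CPM in Ctns WT mice, and 4 of the 8 rose, beside 4.32% of all symbols called. These were the matrix genes COL1A1, COL1A2, COL3A1 and LUM, whereas PDGFRA, PDGFRB, DCN and DPT were not called in mice. In rats 25 to 32 the 8 markers summed to 522 to 596.5 CPM in Ctns KO and 264 to 324 CPM in Ctns WT animals, and in rats 17 to 24 to 361 to 503 and 301.1 to 333 CPM. The 9 macrophage markers summed to 211 to 253 CPM in Ctns KO and 136 to 139 CPM in Ctns WT mice. In rats they summed to 351 to 518 and 150.6 to 188 CPM in numbers 25 to 32 and to 179 to 209.8 and 113 to 157 CPM in numbers 17 to 24. Of these 9, 5 rose in mice, beside 4.32% of all symbols called, and 8 over all rats, beside 27.5%.

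The thick limb and distal nephron, which makes osteopontin in healthy kidney, had summed markers of 10148 to 11203 CPM in Ctns KO and 8327 to 9635 CPM in Ctns WT mice, with 0 of 8 markers called. In rats 25 to 32 its 5 markers in the table summed to 4336 to 5144 CPM in Ctns KO and 2852 to 3553 CPM in Ctns WT animals, and they overlapped in rats 17 to 24. Of the 5, UMOD, CALB1 and SCNN1G rose in rats 25 to 32, beside 50.0% of all symbols called. AQP3 fell there (-0.55 ± 0.11, adjusted p = 0.000669 with edgeR), and SLC12A1 was not called (-0.08 ± 0.10). The median sum was 4450 CPM in Ctns WT rats 17 to 24 and 3129 CPM in Ctns WT rats 25 to 32, against 4569 and 5085 CPM in Ctns KO rats. Proximal tubule markers, 8 of 10 in the rat table, had a lower sum in Ctns KO rats. It was 7136 to 8401 against 12149 to 13611 CPM in numbers 25 to 32. In numbers 17 to 24 it was 8836 to 9467 against 10173 to 12283 CPM. SLC34A1 was the largest part, with a mean of 4018 CPM in Ctns KO and 5799 CPM in Ctns WT rats. Over all rats 4 of the 8 fell, SLC34A1, SLC22A6, SLC22A8 and AQP1, beside 27.5% of all symbols called. CUBN also fell in numbers 25 to 32, and only SLC34A1 and AQP1 fell in numbers 17 to 24. SLC5A2, SLC7A13 and SLC22A7 were not called and not lower in mean CPM over all rats. In mice the proximal tubule markers summed to 12846 to 13795 CPM in Ctns KO and 13036 to 16949 CPM in Ctns WT animals, with overlap. Smooth muscle markers overlapped between genotypes in mice (169 to 222 and 136 to 221 CPM) and were apart in rats 25 to 32 (65.5 to 67.9 and 42.7 to 46.0 CPM); endothelial and podocyte markers overlapped in mice and in both rat ranges. No marker list had a marker without a read in all animals. The part of these cell types in the differences of the members was not tested.

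**Figure D5:**
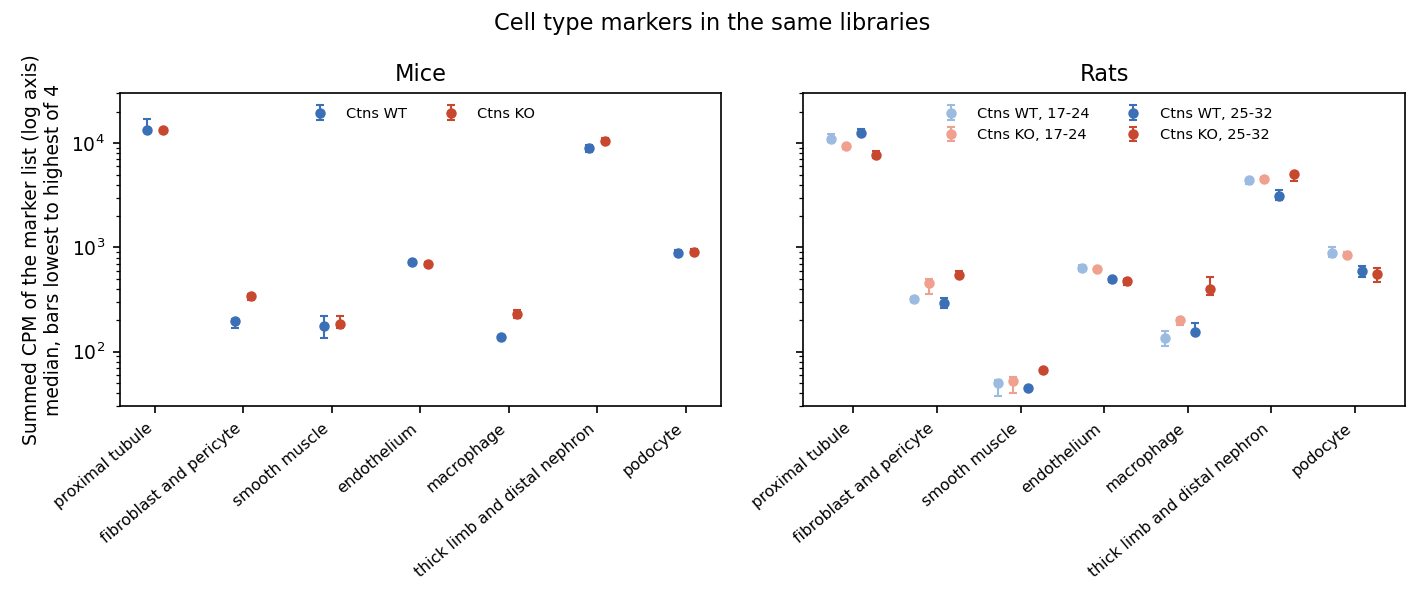
Summed CPM of 7 marker lists (log axis) in mice and rats; points are medians of 4 animals and bars run from the lowest to the highest. Fibroblast and macrophage lists are higher in Ctns KO animals of both species, and the proximal tubule list is lower in Ctns KO rats 25 to 32.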

How the data were processed

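Libraries were TruSeq Stranded mRNA with paired reads of 100 nucleotides. The submitters' processing notes list bcl2fastq 2.20, STAR 2.7.3, DESeq2 1.24.0, R 3.6.1 and the builds mm10 and rn5. The counter, annotation and filters are not given in the sources used here.

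The deposited mouse table holds a normalized signal for each gene symbol. Judged from the values, 0.5 was added to the reads and the sum was set relative to the library's 75th percentile, to which 0.5 had been added as well. Undoing this gave whole reads (to within 0.01) for 99% of values. The deposited rat table holds estimated counts with 1/6 added, which was removed before rounding; 97.7% were whole. No member had a value that was not whole. CPM are reads per 1000000 reads of a library. In both tables symbols are of human style, so several rodent genes can share 1.

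Mouse values were tested with limma 3.58.1 (trend, robust) on log2(value + 1), without a filter. Rat reads were tested with edgeR 4.0.16 (quasi-likelihood, TMM, filterByExpr) in R 4.3.3, with genotype alone or with 4 groups of genotype and number range over 16 rats. The standard error printed with edgeR is approximate, being the absolute log2 fold change divided by the square root of the quasi-likelihood F. P-values were adjusted by Benjamini-Hochberg over all symbols tested, with a threshold of 0.05. Alternatives were a pseudocount of 0.1, a minimum mean scaled value of 0.1, edgeR and DESeq2 1.42.0 on recovered mouse reads, and for rats DESeq2, limma-voom, DESeq2's size factors, no filter, the range as a covariate or fitted alone, and leaving out each animal. The scripts were tested on simulated data. Depth limits only genes with few reads, such as POSTN, and the number of animals limits the rest.

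Members and gene lists were chosen with earlier results of these data known. Named beside the members were, per list and species, the up to 3 called genes with the largest absolute log2 fold change, and the 5 genes most correlated with SPP1 over rats.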

Additional observations from a re-analysis of the deposited data

Results flagged for a closer look

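In 4 of 56 groups of a member's values, 1 library stood apart from the other 3 by more than Dixon's 95% limit, where chance gives about 1 in 20. CCN2 in Ctns KO mouse 8 had a scaled value of 2.05 against 2.27 to 2.30 in the other knockouts. TNC in Ctns WT mouse 4 had 0.119 against 0.161 to 0.163. FN1 in Ctns KO rat 18 had 42.9 CPM against 60.5 to 63.4 CPM in the other knockouts of numbers 17 to 24. POSTN in Ctns KO rat 22 had 0.290 CPM, from 8 reads, against 0.0642 to 0.0963 CPM.

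By the interaction in edgeR the effect of genotype was larger in rats 25 to 32, by a log2 of 0.92 for MGP, 0.68 for FN1 and 0.32 for SPARC. For SPP1 it was larger by 2.06. These values describe members chosen on these animals. Summed macrophage markers were 351 to 518 CPM in Ctns KO rats 25 to 32 and 179 to 209.8 CPM in Ctns KO rats 17 to 24, and their part in these differences was not tested. What separates the ranges is not in the labels, so range cannot be told apart from age, sex, treatment or sequencing run.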

How the results depend on the processing

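No value of a member that was called under any setting changed its direction. Of the settings other than leaving out an animal, the count of symbols called in mice moved from 751 with limma to 1198 with edgeR and 1520 with DESeq2 on recovered reads. CCN2 passed the threshold in mice under 3 of these settings, and THBS2 lost it in rats 25 to 32 when that range was fitted alone (-0.35). Leaving out 1 animal gave these ranges of symbols called and of members called: 352 to 683 and 3 to 5 in mice, 2536 to 3478 and 5 throughout in all rats, 503 to 890 and 1 to 3 in rats 17 to 24, 5077 to 6000 and 6 to 7 in rats 25 to 32, 1010 to 2392 and 3 to 4 for the interaction, 1852 to 2648 and 0 to 1 for Ctns WT rats between ranges, and 4311 to 5890 and 6 to 8 for Ctns KO rats between ranges. Over single members this lost 42 calls and added 5. With the range as a covariate, SPP1 had 3.34 and MGP 0.89 over all rats, and the same members were called. The counts of members include SPP1 and, where it was tested, POSTN, and are descriptions. Listed genes that were called kept their direction under each setting run, and TGFB1 lost its call in mice with edgeR on recovered reads (0.23). No paired analysis was possible because the groups share no replicate numbers. With 1 library per animal and 4 rats a group in each range, a small difference of CCN2 could not be told from none. Its log2 fold changes were 0.08 ± 0.26 in rats 17 to 24 and -0.11 ± 0.26 in rats 25 to 32.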
